A study of Mus musculus with 278 samples.

Results

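Single spermatogonia of mice at postnatal day 6 were divided by whether they contained detectable Id4 RNA, and the resulting groups were compared with each other and with the brightness of an ID4-EGFP reporter. A cell counted as Id4 detected when its Id4 value was at least 1 FPKM (a fragment count divided by transcript length and by the mapped fragments of the cell). Of 278 cells, 116 were Id4 detected and 162 were Id4 not detected. Id4 values therefore chose the groups, and they are given below as a description with no test. Id4 itself was left out of every outcome.

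All cells were EGFP-positive spermatogonia from testes of untreated pups, with at least 2 pups pooled per digestion, sorted by flow cytometry and captured singly on a Fluidigm C1 microfluidic chip. Each cell was imaged, ranked by EGFP fluorescence and assigned to a quartile, from Q1 (bright) to Q4 (dim), and dead cells, multiplets and wells with debris had been left out. The cells came from 5 preparations of 26, 62, 37, 75 and 78 cells, and both Id4 groups came from every preparation, so the preparation (n = 5) is the unit of replication. The strain of the mice and the sequences that drive EGFP are not stated in the labels, which also do not say whether the preparations came from separate litters. No EGFP-negative or Id4-deficient cells were in the comparison, so both groups are reporter-positive.

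ID4 is a helix-loop-helix protein that lacks the basic region needed to bind DNA. ID proteins pair with E proteins such as those encoded by Tcf3, Tcf4 and Tcf12 and keep them from their E-box sites (CANNTG). In the postnatal testis, Id4 and its reporters mark a subset of undifferentiated spermatogonia that includes the stem cells, which depend on GDNF and FGF from their niche and lose the stem cell state as they begin to differentiate in response to retinoic acid.

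Id4 lies on chromosome 13 of the mouse genome (GRCm38; GENCODE M21 gene ENSMUSG00000021379.2, start 48261228, end 48266026, plus strand), is protein coding and has 1 annotated transcript with 3 exons. Genes annotated on the opposite strand, A330033J07Rik and Gm49291, overlap its exons, and without strand information their reads cannot be told apart from those of Id4. The 250 bases before the RefSeq start of Id4 are printed because this is the gene whose RNA divides the cells. They are shown 5′ to 3′ on the plus strand at chr13:48260866-48261115 (RefSeq, GRCm38.p6), with capitals marking ATTGG, the reverse complement of the CCAAT motif.
Id4 upstream region: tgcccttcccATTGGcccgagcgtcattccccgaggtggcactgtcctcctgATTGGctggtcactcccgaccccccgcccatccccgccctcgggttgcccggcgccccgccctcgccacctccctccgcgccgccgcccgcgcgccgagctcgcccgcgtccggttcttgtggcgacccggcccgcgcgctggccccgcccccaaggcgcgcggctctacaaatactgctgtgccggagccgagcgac
CCAAT, searched on both strands, occurred in 2 copies, and 9.91% of 32851 RefSeq promoter windows of the same length held at least 2. The E-box CANNTG, searched on both strands, occurred in 0 copies here and in at least 1 copy in 66.2% of the windows. G and C made up 75.6% of these bases.

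The germ cell genes Dazl, Ddx4, Uchl1 and Mael were detected in 100% of cells, and every cell had at least 4 of 8 germ cell genes (median 8). Cells had a median of 6320 detected genes (at least 1 FPKM; range 2569 to 7705), and an estimated median depth of 628560 mapped fragments (range 203327 to 1432731). Preparation 3 stood apart, with 4437 detected genes per cell on average against 5875 to 7148 in the other preparations, and also with the smallest share of Id4-detected cells.

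The distribution of Id4 was split between cells listed at 0 and a broad range of positive values. It was listed at 0 in 158 cells, and in the 116 detected cells it ran from 1.03 FPKM to 162 FPKM with a median of 11.2. At least 5 FPKM was reached in 82 cells, at least 10 FPKM in 61 and at least 100 FPKM in 5. The 20 cells with the highest values held 58.5% of all Id4 FPKM summed over cells. Id4 was thus well above the cutoff in most detected cells, and a few cells held much of the total.

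Only 4 cells lay between 0 and the cutoff, at 0.69, 0.80, 0.83 and 0.95 FPKM. Just inside it were cells at 1.03, 1.07, 1.08, 1.13 and 1.15 FPKM. The lowest step of Id4's own values, scaled by the estimated depth, was taken as 1 fragment. On that assumption, 1 Id4 fragment was worth 1.02 FPKM in the median cell (range 0.445 to 3.14). The cutoff thus fell below 1 fragment in some cells and above it in others. The annotated exonic length of Id4 (3849 bases) would give a lower value at the same depth, and this mismatch was not resolved. Because the step was set from the lowest Id4 values, cells at it are there by construction: 14 cells held it (within 10%). Above it, 11 cells held the next step, and 0 lay between the steps. Whether the step is 1 fragment was not tested. Of those 14 cells, 4 were below the cutoff and 10 were at or above it. Among detected cells, 27 had up to 3 fragments on this scale and 89 had more.

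An Id4 value of 0 did not exclude low expression at this depth. Allowing for 3 missed fragments, each taken as the lowest Id4 step, a value of 0 was compatible with up to 2.94 FPKM (median of the cells listed at 0). Over the cells listed at 0 this limit was 1.34 to 9.42 FPKM, for counting error only. Not detected therefore means below this limit, not absent.

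By preparation, Id4 was detected in 50% of cells in preparation 1, 53.2% in preparation 2, 24.3% in preparation 3, 40% in preparation 4 and 39.7% in preparation 5, a mean of 41.4% ± 11.3 (SD, n = 5). Median values in the detected cells were 6.60, 11.5, 11.2, 21 and 7.57 FPKM in the same order. Preparation 3 had the fewest detected cells (9 of 37), but its median among them lay inside the range of the other preparations.

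**Figure D1:**
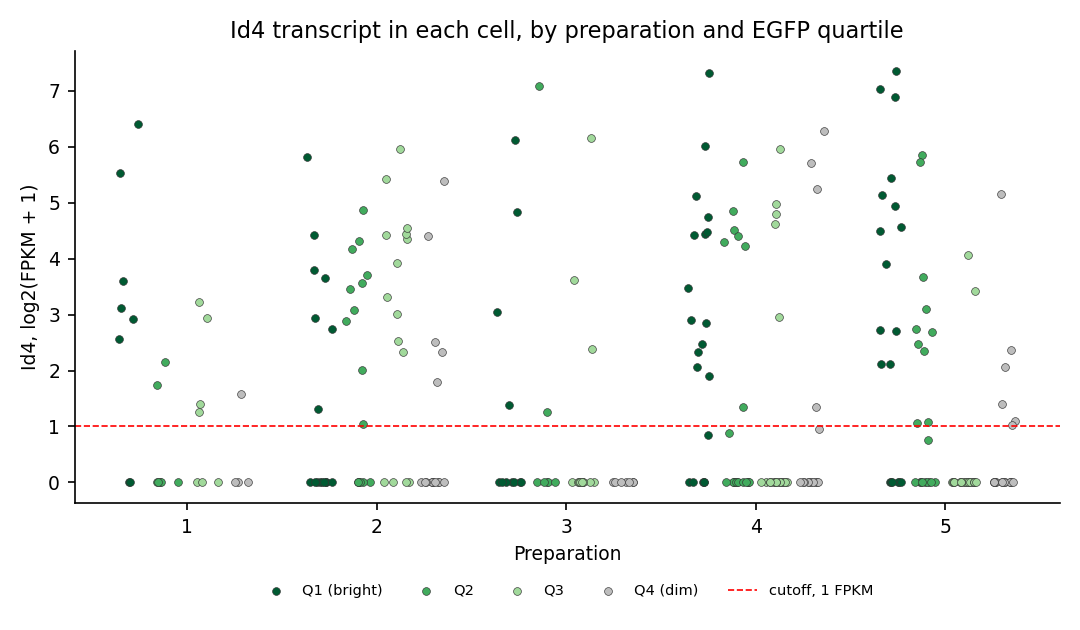
Id4 in each of the 278 cells on a log2(FPKM + 1) scale, by preparation, with cells coloured and offset by EGFP quartile; the dashed line is the cutoff of 1 FPKM. Cells listed at 0 form the row at the bottom (158 cells), and 4 cells lie between it and the cutoff.

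The comparison of transcript and reporter asked how often bright cells are the cells with Id4 RNA. Id4 was detected in a larger share of Q1 cells than of Q4 cells in every preparation, but detection was neither universal in the bright quartile nor confined to it. From the brightest to the dimmest quartile, the mean share of cells with Id4 detected was 58.7% ± 17.4, 40.9% ± 14.9, 38.1% ± 26.1 and 23.3% ± 13.5 (SD, 5 preparations). Over all cells, the share was 59.5% in Q1 (44 of 74 cells, exact 95% interval 47.4 to 70.7), 44.3% in Q2 (31 of 70, 32.4 to 56.7), 33.8% in Q3 (25 of 74, 23.2 to 45.7) and 26.7% in Q4 (16 of 60, 16.1 to 39.7). These exact (Clopper-Pearson) intervals cover counting error only. Neighbouring quartiles overlapped in their preparation values, whereas Q1 and Q4 did not: Q1 ran from 36.4% to 75% and Q4 from 0% to 33.3%.

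Within preparations, the Q1 and Q4 cells with Id4 were 6 of 8 and 1 of 4 in preparation 1. Preparation 2 had 7 of 16 against 5 of 15, and preparation 3 had 4 of 11 against 0 of 7, where 0 allows a share of up to 42.9%. Preparation 4 had 14 of 20 against 4 of 15, and preparation 5 had 13 of 19 against 6 of 19. The Q1 share thus exceeded the Q4 share in each preparation, by 35.4 percentage points ± 15 (SD, n = 5), from 10.4 in preparation 2 to 50 in preparation 1. The exact permutation test over preparations (two-sided) gave p = 0.063, the smallest value that 5 preparations allow, and 0.125 after Benjamini-Hochberg adjustment over 4 comparisons. A p under 0.05 could not be reached by this design.

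Read from transcript to reporter, Id4-detected cells were brighter. Their mean quartile number (Q1 counted as 1 and Q4 as 4) was 2.06 ± 0.21, against 2.63 ± 0.12 in cells without detected Id4 (SD, n = 5). The difference was -0.56 ± 0.28 (SD, n = 5), with all 5 preparations below 0, from -0.78 to -0.09 (two-sided exact permutation test, p = 0.063, adjusted p = 0.125). Preparation 2 had the smallest difference, with 2.42 against 2.52. Of Id4-detected cells, 40.1% ± 10.7 were in Q1 and 11.1% ± 7.51 in Q4. Cells without detected Id4 were in Q1 in 19.5% ± 8.1 and in Q4 in 26.9% ± 4.55 (SD, n = 5).

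Averaged over preparations, the amount of Id4 followed the same order. From Q1 to Q4, mean Id4 over all cells of the quartile was 17.4 ± 9.58, 8.61 ± 6.76, 6.68 ± 5.39 and 3.77 ± 4.52 FPKM (SD, n = 5). No single preparation showed this full order, although the Q1 mean lay above the Q4 mean in each. The highest mean was in Q3 in preparation 2. In preparation 3 it was in Q2, at 19.5 FPKM against 9.54 FPKM in Q1. Cells with at least 10 FPKM made up 35.1%, 21.4%, 18.9% and 10.0% of the pooled cells of Q1 to Q4. Among the detected cells alone, however, the pooled median was 13.4, 9.99, 14.1 and 4.07 FPKM from Q1 to Q4. Preparation 2 supplied 11 of the 25 detected Q3 cells, and within preparations 1 to 5 the median was 4.15, 19.4, 11.2, 26.8 and 12.7 FPKM in detected Q3 cells and 9.4, 11.5, 17.3, 15.2 and 22.7 FPKM in detected Q1 cells, so neither quartile was higher throughout.

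**Figure D2:**
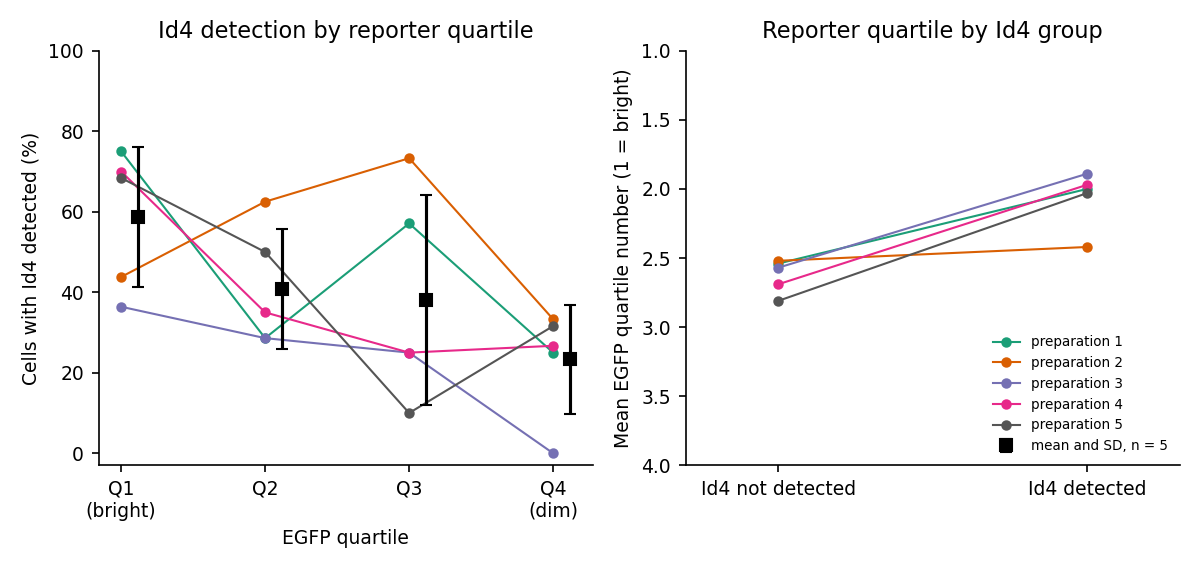
Left, percent of cells with Id4 detected in each EGFP quartile, one line per preparation, with the mean and SD of 5 preparations in black; right, mean EGFP quartile number of cells without and with detected Id4 in each preparation, with bright at the top. Every preparation has a higher share in Q1 than in Q4 and brighter Id4-detected cells, with the smallest differences in preparation 2 (10.4 percentage points and -0.09 quartiles).

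Reporter and transcript gave the same call in 168 of 278 cells (60.4%) when Q1 and Q2 were pooled as brighter cells and Q3 and Q4 as dimmer cells. There were 75 brighter cells with Id4, 69 brighter cells without it, 41 dimmer cells with it and 93 dimmer cells without it. The share with the same call was 53.8%, 50%, 59.5%, 62.7% and 69.2% in preparations 1 to 5 (mean 59% ± 7.52, SD, n = 5). The odds ratio ran from 0.992 in preparation 2 to 5.57 in preparation 5, and was 2.47 over all cells. The spread between preparations was thus wide, with an odds ratio close to 1 in preparation 2 and the highest in preparation 5. Spearman's rho between Id4 and brightness over the cells of a preparation was 0.40, 0.02, 0.26, 0.27 and 0.42, a description over cells that share a chip and a suspension.

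Breadth and depth of the libraries were compared because a cell with more detected genes has more chance to show Id4. Id4-detected cells had 163 ± 331 more detected genes than the other cells of their preparation (SD, n = 5), and more in 3 of the preparations (two-sided exact permutation test, p = 0.4375, adjusted p = 0.5625). The values were 7079 against 7217 genes in preparation 1, 7088 against 6792 in preparation 2, 4950 against 4272 in preparation 3, 6035 against 6094 in preparation 4 and 5897 against 5860 in preparation 5. Preparation 3 had the largest gap, 678 genes. The log2 ratio of estimated depth was -0.05 ± 0.15 (SD, n = 5), with 4 preparations below 0 (two-sided exact permutation test, p = 0.5625, adjusted p = 0.5625). In 102 pairs of cells matched on detected genes to within 5% in the same preparation (6308 genes with Id4 detected against 6241), the difference in quartile number was -0.56, as large as over all cells.

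The gene comparison asked which transcripts differ between cells with and without detected Id4 in the same preparation. The genes with the smallest p-values were Gfpt2, Dusp6, Tcl1, Upf3b, Pbx3, Pmaip1 and Etv5 on the higher side and 2310008H04Rik, Taf9b, Gm41, Tmem135, Vps37a and Mlf1 on the lower side. None of 10451 genes passed an adjusted p of 0.05 (limma with Benjamini-Hochberg adjustment; 0.0% called), and the smallest adjusted p was 0.215. An unadjusted p under 0.05 was reached by 742 genes (7.1%), 516 of them higher with Id4 detected (4.94%) and 226 lower (2.16%), and 523 would be reached if no gene differed and p-values were uniform. With log2 of the mean FPKM in place of the mean of log2 values, the split was 328 higher and 331 lower. All 5 preparations had the same direction for 4.89% of genes on the higher side and 2.89% on the lower side. Differences below are on the log2(FPKM + 1) scale, Id4 detected minus not detected, as fitted value ± SE. The median over all genes tested was 0.04, and 57.1% of genes lay above 0.

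Gfpt2, which encodes a glutamine-fructose-6-phosphate transaminase of the hexosamine pathway, had the smallest p (chromosome 11, 49794178 to 49838613, GRCm38). Its mean was 53.7, 54, 56.1, 58.5 and 59.8 FPKM in Id4-detected cells of preparations 1 to 5, and 30.6, 29.7, 31.6, 32.6 and 26.3 FPKM in the other cells. The groups did not overlap, with every Id4-detected mean above every other mean. Such separation upward was found in 0.402% of genes tested, and downward in 0.383%. The fitted difference was 1.35 ± 0.24 (limma, adjusted p = 0.215), positive in 5 of 5 preparations. Gfpt2 was at 1 FPKM or more in 80.8% of Id4-detected cells and 60.6% of the others (means of 5 preparations).

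Tcl1, a co-activator of AKT (chromosome 12, 105216750 to 105222793), was among the more abundant of these genes. It averaged 209, 192, 247, 212 and 176 FPKM with Id4 detected and 164, 115, 137, 112 and 76.3 FPKM without. Again the lowest Id4-detected preparation lay above the highest of the other group. The fitted difference was 1.3 ± 0.25 (limma, adjusted p = 0.215). Tcl1 was the only gene that passed when the Id4 cutoff was raised: the difference was 1.56 at 5 FPKM (limma, adjusted p = 0.00644) and 1.86 at 10 FPKM (adjusted p = 0.00329). These cutoffs were among 19 alternatives to the main fit, and the adjustment was over genes only. At 10 FPKM, preparation 1 had 3 Id4-detected cells, all in Q1. Within EGFP quartiles, no gene passed at a cutoff of 5 FPKM.

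Pmaip1, which encodes the BH3-only protein NOXA, averaged 37.7 FPKM ± 12.2 against 19.1 ± 7.64 (SD, n = 5), and its preparation means did not overlap either. Its fitted difference was 1.42 ± 0.29 (limma, adjusted p = 0.215). Upf3b, an X-linked component of nonsense-mediated decay, averaged 75.9 FPKM ± 29.8 against 46.9 ± 17.3, with overlapping groups but a positive difference in each preparation (1.57, 1.45, 1.37, 1.13 and 0.83). Pbx3, a TALE homeobox factor (chromosome 2, 34171457 to 34373142), was found in fewer cells, 20.8% with Id4 and 9.45% without. It averaged 1.09, 11.5, 14.5, 18.6 and 4.70 FPKM against 0.257, 1.98, 5.26, 0.671 and 0.386 FPKM, and its difference of 0.77 ± 0.15 (limma, adjusted p = 0.215) was positive in 5 of 5 preparations.

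On the receptor side of GDNF signalling, Gfra1 and Ret were both higher with Id4 in all preparations without passing the threshold. Gfra1, the GDNF-binding co-receptor, averaged 56.9, 34.7, 72.6, 31.2 and 35.8 FPKM with Id4 detected and 42.7, 31.1, 59.8, 14.6 and 31.1 FPKM without. The group ranges overlapped, and the fitted difference was 0.99 ± 0.26 (limma, adjusted p = 0.346). Ret, the signalling kinase of that receptor, was even across the Id4-detected groups, at 20.0, 19.9, 17.4, 19.6 and 18.4 FPKM, and ranged more widely without Id4, at 19.2, 14.5, 15.2, 11.5 and 7.98 FPKM. Its difference was 0.93 ± 0.26 (limma, adjusted p = 0.392). Of the 7 GDNF and FGF receptor genes, 4 were tested, all 4 lay above 0 and 2 were higher at an unadjusted p under 0.05 (Gfra1 and Ret), against 57.1% and 4.94% of all genes. Their median of 0.53 was 0.35 without preparation 5, 0.08 with no filter and 0.93 with genes detected in 25% of cells. The FGF receptors Fgfr1 and Fgfr3 differed by 0.13 ± 0.20 and 0.08 ± 0.13.

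Downstream of these receptors, genes that respond to GDNF or FGF lay above 0 in 19 of 19 tested members (26 listed), with a median of 0.38. Of these, 8 (42.1%) were higher at an unadjusted p under 0.05, against 57.1% above 0 and 4.94% higher among all genes. The median ran from 0.26 to 0.58 with 1 preparation left out, the highest without preparation 2, and from 0.12 to 0.70 with pseudocounts of 10 and 0.1. The members were not uniform: Mycn (0.0002 ± 0.25), Spred1 (0.002 ± 0.28), Egr4 (0.08 ± 0.27), Spry1 (0.10 ± 0.17) and Fos (0.305 ± 0.315) lay within 1 SE of 0. Each of these had a lower mean FPKM with Id4 detected than without. The members were chosen with earlier results of these cells known. Dusp6, an ERK phosphatase induced by ERK signalling (chromosome 10, 99263231 to 99267489), averaged 47.7, 68.2, 101, 74.1 and 64.3 FPKM with Id4 and 40, 53.9, 46.1, 29.1 and 31.2 FPKM without. Only preparation 1 with Id4 fell inside the range of the other group. The difference was 1.47 ± 0.27 (limma, adjusted p = 0.215), from 0.10 in preparation 1 to 2.08 in preparation 4.

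Etv5, an ETS factor needed for stem cell maintenance, averaged 59.9, 57, 84.4, 47.4 and 54.8 FPKM with Id4 and 54.9, 33.4, 54.1, 20.0 and 28.5 FPKM without. It was level in preparation 1 (-0.05) and higher with Id4 in the other 4, with a fitted difference of 1.31 ± 0.27 (limma, adjusted p = 0.215). Other members of the response were Spry4, an inhibitor of receptor tyrosine kinase signalling (1.18 ± 0.27, adjusted p = 0.289), Egr2, an immediate early zinc finger factor (1.02 ± 0.24, adjusted p = 0.298), and Etv4, another ETS factor (0.60 ± 0.22, adjusted p = 0.519), each higher in 5 of 5 preparations. Bcl6b, a GDNF-regulated repressor, was lower with Id4 in preparation 1 (-1.06) and higher by 0.82 to 1.5 in the other preparations, with a fitted difference of 1.01 ± 0.30 (limma, adjusted p = 0.413). Lhx1, a LIM homeobox factor, averaged 7.25 FPKM ± 2.21 against 3.35 ± 1.89 (0.55 ± 0.18, adjusted p = 0.481).

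Among 21 tested genes associated with stem cells (28 listed, including Gfra1, Ret, Etv5, Bcl6b, Tcl1, Lhx1 and Dusp6), 18 lay above 0 with a median of 0.40. The median was 0.20 and 0.57 with pseudocounts of 10 and 0.1. Of these 21, 11 were higher at an unadjusted p under 0.05 and 1 was lower (Utf1, -0.49 ± 0.17), against 4.94% and 2.16% of all genes. With 1 preparation left out, the median ran from 0.34 (without preparation 3) to 0.48 (without preparation 4). This list shares Gfra1 and Ret with the receptor list and Dusp6, Etv5, Egr2, Bcl6b and Lhx1 with the response list. Their medians are therefore not independent. The list was not uniform. Nanos2, an RNA-binding regulator of the stem cell state, differed by 0.06 ± 0.22, from -0.80 in preparation 5 to 1.16 in preparation 1, and turned negative without preparation 1 or preparation 2. Zbtb16 (PLZF), expressed in undifferentiated spermatogonia, averaged 48.3 FPKM ± 21.6 against 50.4 ± 14.3 and differed by 0.03 ± 0.23, a sign that turned with log2 of the mean FPKM (-0.12) and in 7 other alternatives. It was detected in nearly all cells of both groups, 95.8% with Id4 and 92.2% without.

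The list of 6 genes called between EGFP quartiles in an earlier fit of these same cells (Upf3b, Snrpn, Capg, Hlf, Nefm and Rab4a) had a median of 0.84. It was chosen on these samples and on reporter brightness, so it is not independent evidence. Nefm, a neurofilament gene, averaged 38.9 FPKM ± 10.1 against 22.9 ± 11 (0.98 ± 0.26, adjusted p = 0.346). Rab4a, an endosomal GTPase, averaged 18.9 ± 13.8 against 6.18 ± 5.48 FPKM (0.85 ± 0.23, adjusted p = 0.372). Capg, an actin-capping protein gene, differed by 0.83 ± 0.26 and Hlf, a PAR bZIP factor, by 0.51 ± 0.23. Snrpn, an imprinted splicing gene that shares exons with Snurf, differed by 0.26 ± 0.26 (limma, adjusted p = 0.903) and had its highest preparation difference in preparation 3 (1.37, against 0.02 to 0.32 elsewhere).

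**Figure D3:**
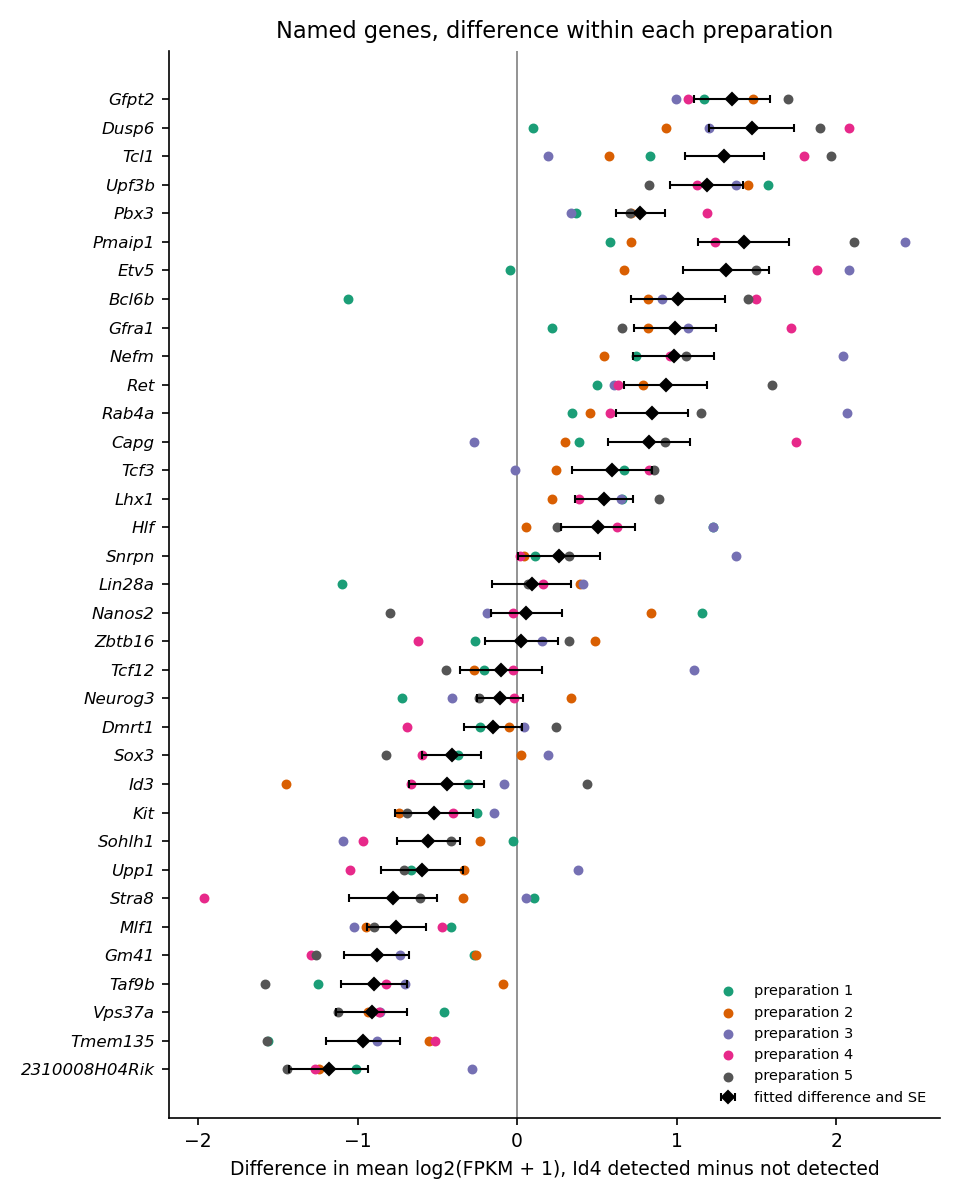
Difference in mean log2(FPKM + 1) between Id4-detected and other cells for 35 tested named genes, with each preparation as a coloured point and the fitted difference with its SE in black. Gfpt2, Dusp6, Tcl1, Upf3b, Pbx3 and Pmaip1 lie above 0 in 5 of 5 preparations, and no gene shown passed an adjusted p of 0.05.

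Genes of differentiating spermatogonia lay on the other side, again without any call. Of 12 tested members, 9 lay below 0, the median was -0.19, and 5 were lower and 1 higher (Ccnd2, a D-type cyclin, 0.84 ± 0.21) at an unadjusted p under 0.05, against 2.16% lower, 4.94% higher and 57.1% above 0 among all genes. The medians of preparations 1 to 5 were 0.02, -0.03, 0.02, -0.12 and -0.51, so the largest shifts were those of preparations 4 and 5. Kit, the receptor whose appearance marks differentiating spermatogonia, averaged 22.2, 19.4, 5.95, 16.6 and 18.6 FPKM with Id4 and 27.7, 28.7, 23, 19.2 and 31 FPKM without. It was lower with Id4 in 5 of 5 preparations, by -0.52 ± 0.24 (limma, adjusted p = 0.698), although the share of cells with Kit was similar, 60.5% against 63.5%. Sohlh1, a helix-loop-helix factor of differentiation, averaged 101 FPKM ± 24.8 against 119 ± 36.6 and was lower in 5 of 5 preparations on the log2 scale (-0.56 ± 0.20, adjusted p = 0.519).

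Stra8, a retinoic acid target, averaged 106 FPKM ± 58.4 against 144 ± 75. Its difference was -0.78 ± 0.28 (limma, adjusted p = 0.508), negative in preparations 2, 4 and 5 and slightly positive in the other 2. Dmrt1, a DM-domain factor of male germ cells, differed by -0.15 ± 0.18, positive in 2 of 5 preparations and over the preparations other than 4 (0.05). Among progenitor-associated genes, 4 of 5 tested lay below 0. Sox3 differed by -0.41 ± 0.19, Upp1 by -0.60 ± 0.26 and Neurog3, detected in 28 cells, by -0.11 ± 0.15, which turned positive at Id4 cutoffs of 5 and 10 FPKM. Lin28a differed by 0.09 ± 0.25, and by -0.27 in cells matched on detected genes. None of these 4 had an adjusted p below 0.661.

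Of the genes lower with Id4 detected by smallest p, 6 were followed, and each was lower in 5 of 5 preparations. Tmem135, a peroxisomal and mitochondrial membrane protein gene, averaged 4.38, 5.61, 6.23, 3.98 and 3.07 FPKM with Id4 and 11.6, 9.43, 12.4, 9.21 and 16.4 FPKM without. Its groups did not overlap, and the difference was -0.97 ± 0.23 (limma, adjusted p = 0.298). Vps37a, a subunit of the ESCRT-I complex, averaged 4.2 FPKM ± 2.21 against 9.11 ± 0.665 (-0.91 ± 0.22, adjusted p = 0.300). Mlf1, the myeloid leukemia factor gene, averaged 116 ± 17.2 against 179 ± 23.5 FPKM (-0.76 ± 0.18, adjusted p = 0.300). Neither Vps37a nor Mlf1 overlapped between groups.

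The unnamed transcript 2310008H04Rik averaged 14.3 FPKM ± 3.04 against 28.4 ± 6.68 (-1.18 ± 0.25, adjusted p = 0.231). Taf9b, which encodes a TFIID subunit paralog, averaged 163 ± 41.9 against 232 ± 67.9 FPKM (-0.90 ± 0.21, adjusted p = 0.289). Gm41, annotated as an X-linked unprocessed pseudogene, averaged 130 ± 26.7 against 156 ± 23.8 FPKM (-0.88 ± 0.21, adjusted p = 0.289), and reads of a related gene may be assigned to it. The latter 3 overlapped between groups.

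The partners of ID4 showed no common direction. Tcf3, which encodes the E proteins E12 and E47, averaged 14.5 FPKM ± 7.61 against 10.9 ± 4.61 (0.60 ± 0.25, adjusted p = 0.633). Tcf12, encoding the E protein HEB, averaged 25.7 ± 8.42 against 27.3 ± 4.95 FPKM (-0.10 ± 0.26, adjusted p = 0.971), with the sign turned at an Id4 cutoff of 5 FPKM (0.17). Among the other ID genes, Id3 was found in 54 cells and averaged 9.53, 5.13, 1.42, 6.79 and 5.58 FPKM with Id4 against 12, 21.7, 2.75, 15.4 and 3.28 FPKM without. It was lower with Id4 in 4 of 5 preparations (-0.44 ± 0.24, adjusted p = 0.778). Id1 was found in 15 cells and Id2 in 24, too few to be tested. Their means were 1.00 ± 0.822 against 0.749 ± 0.568 FPKM for Id1 and 1.2 ± 0.776 against 3.3 ± 4.5 FPKM for Id2.

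Genes of general cell state gave smaller medians. DNA replication and G1/S genes had a median of 0.15 (19 of 24 above 0) and G2/M genes of 0.14 (23 of 30 above 0), with 2 (8.33%) and 1 (3.33%) members higher at an unadjusted p under 0.05, near the 4.94% of all genes, of which 57.1% lay above 0. Without the cells of 1 to 10 FPKM counted as Id4 detected, at a cutoff of 10 FPKM, the G2/M median was -0.16. BMP receptors and SMADs, part of the pathway that induces ID genes in many cells, had a median of 0.24 with 6 of 9 above 0, but their preparation medians ran from -0.25 to 0.22. Cytosolic ribosomal protein genes had a median of -0.04 (24 of 79 above 0), which turned to 0.01 without preparation 5. The germ cell genes had a median of -0.03, and the immediate early and heat shock genes one of 0.20 (10 of 13 above 0).

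**Figure D4:**
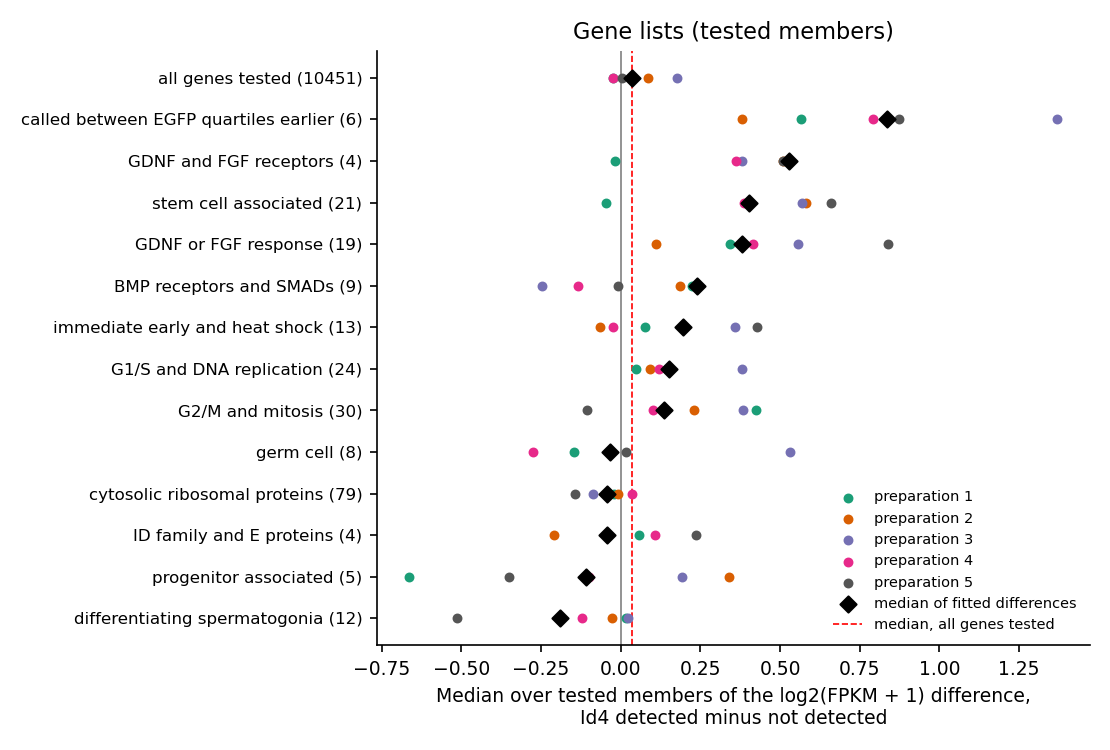
Median difference in log2(FPKM + 1) over the tested members of each gene list (number in parentheses), with each preparation as a coloured point and the median of the fitted differences as a black diamond; the dashed line is the median of all 10451 genes. Lists of GDNF and FGF receptors, stem cell genes and GDNF or FGF response lie at 0.53, 0.40 and 0.38 against 0.04 for all genes. Differentiating spermatogonia lie at -0.19. These medians move with the pseudocount and the filter, and the stem cell list shares members with the receptor and response lists.

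Of the lists of genes from other testis cells, Sertoli markers had the highest mean summed FPKM in both groups. Summed over 8 Sertoli markers, the preparation means ran from 21.6 to 37.6 FPKM with Id4 and from 6.90 to 50.1 FPKM without, and Amh was listed at 0 in every cell. Clu (0.59 ± 0.14, unadjusted limma p = 0.000683, adjusted p = 0.298) and Rhox5 (0.43 ± 0.18), the 2 Sertoli markers tested, were higher with Id4. Their part in the other differences was not tested. Of 5 Leydig markers 4 were listed at 0 in every cell, and the sum was 0 to 4.78 FPKM with Id4 and 1.22 to 5.80 without. Peritubular and stromal markers (Dcn at 0) summed to 0 to 4.34 and 0.674 to 5.17 FPKM, endothelial markers to 1.22 to 5.98 and 0.906 to 5.52 FPKM, and macrophage and blood markers (Lyz2 at 0) to 3 to 17.4 and 2.39 to 8.94 FPKM, with and without Id4.

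To separate transcript from reporter, the Id4 groups were also compared among cells of the same preparation and the same EGFP quartile. The 13 genes with the smallest p-values named above kept their sign within quartiles. They were chosen by the fit over all quartiles of these same cells, so the kept sign is not independent evidence. Dusp6 differed by 1.23 ± 0.30, Etv5 by 1.08 ± 0.26, Gfpt2 by 1.05 ± 0.28, Pmaip1 by 1.25 ± 0.31 and Pbx3 by 0.69 ± 0.16, while Tmem135 differed by -1.01 ± 0.22, Vps37a by -0.93 ± 0.21 and 2310008H04Rik by -1.21 ± 0.29. No gene passed (limma, smallest adjusted p = 0.211; 0.0% called), and 642 (6.14%) had an unadjusted p under 0.05, 377 higher (3.61%) and 265 lower (2.54%). With log2 of the mean FPKM the balance turned, to 179 higher and 433 lower, with a median over all genes of -0.06. Preparation 3 had no Id4-detected cell in Q4, so 39 means entered this fit. Without preparation 3, 1 gene passed, Fbxl5, an iron-sensing F-box protein gene, at -1.08 (limma, adjusted p = 0.0451), chosen for mention after its value was seen. That fit took several means of each preparation as separate units (24 residual degrees of freedom), so its p-value may be too small.

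The differences on the higher side were smaller than over all quartiles, those of Dusp6, Etv5, Gfpt2, Pmaip1 and Pbx3 included. Tcl1 stood at 0.93 ± 0.38 against 1.3 over all quartiles, Upf3b at 0.87 ± 0.29 against 1.19, Gfra1 at 0.69 ± 0.29 against 0.99, Hlf at 0.22 ± 0.22 against 0.51, and Snrpn at -0.10 ± 0.25 against 0.26. The stem cell list had a median of 0.31 within quartiles (17 of 21 above 0), the GDNF or FGF response one of 0.24 (17 of 19 above 0) and the differentiating list one of -0.18 (9 of 12 below 0). The median over all genes was 0.01. Whether a gene's value within quartiles differed from its value over all quartiles was not tested.

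The difference between cells with and without Id4 was then compared between brighter cells (Q1 and Q2) and dimmer cells (Q3 and Q4). No gene passed this interaction test (limma, smallest adjusted p = 0.679; 0.0% called), and 467 genes (4.47%) had an unadjusted p under 0.05, 265 with a more positive difference in brighter cells (2.54%) and 202 with a more positive one in dimmer cells (1.93%). With log2 of the mean FPKM these counts were 423 and 129, and the median interaction over all genes moved from 0.02 to 0.14. Dusp6 and Etv5, with fitted interactions of -1.44 ± 0.59 (unadjusted limma p = 0.0218) and -1.24 ± 0.50 (unadjusted limma p = 0.020), were among them, with an adjusted p of 0.992 for each. The count of 467 is below the 523 given by uniform p-values. The values of single genes in the 4 classes of cells are therefore given as a description.

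Dusp6 averaged 4.95 ± 0.32 on the log2(FPKM + 1) scale in brighter cells with Id4, 4.58 ± 0.76 in brighter cells without it, 5.08 ± 0.87 in dimmer cells with it and 3.13 ± 0.90 in dimmer cells without it (SD, n = 5). It was found at 1 FPKM or more in 91.6%, 92.2%, 92.2% and 64.3% of cells of these classes. Etv5 averaged 5.13 ± 0.53, 4.66 ± 0.81, 5.20 ± 0.99 and 3.44 ± 1.28 in the same order. Averaged over preparations, dimmer cells without Id4 had the lowest mean of both genes, and dimmer cells with Id4 had a mean no lower than the brighter cells. Single preparations differed. Dimmer cells with Id4 lay below brighter cells with it in preparations 1, 2 and 5 for Dusp6, and 2, 4 and 5 for Etv5. In preparation 2, Dusp6 was lowest in brighter cells without Id4 (3.86, against 4.53 in dimmer cells without it). In preparation 1, Etv5 in dimmer cells without Id4 (5.42) lay inside the range of the other classes (5.24 to 5.89).

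Ret followed both labels, at 3.77 ± 0.52, 3.10 ± 0.56, 3.05 ± 0.30 and 2.39 ± 0.67, and its interaction was -0.04 ± 0.49. Gfra1 averaged 4.37 ± 0.76, 3.99 ± 0.97, 4 ± 1.71 and 2.99 ± 1.28, with dimmer Id4-detected cells ranging from 1.5 in preparation 5 to 6.2 in preparation 3, where that class held 3 cells. Tcl1 averaged 6.05 ± 1.48, 6.16 ± 0.69, 6.54 ± 1.96 and 4.47 ± 1.25. On the side of differentiation, Kit averaged 2.36 ± 0.53, 2.70 ± 0.59, 2.44 ± 1.27 and 3.05 ± 1.08 and Sohlh1 5.68 ± 0.82, 5.79 ± 0.43, 5.11 ± 1.75 and 6.28 ± 0.66, with their highest means in dimmer cells without Id4. The spread between preparations exceeded most of these differences.

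**Figure D5:**
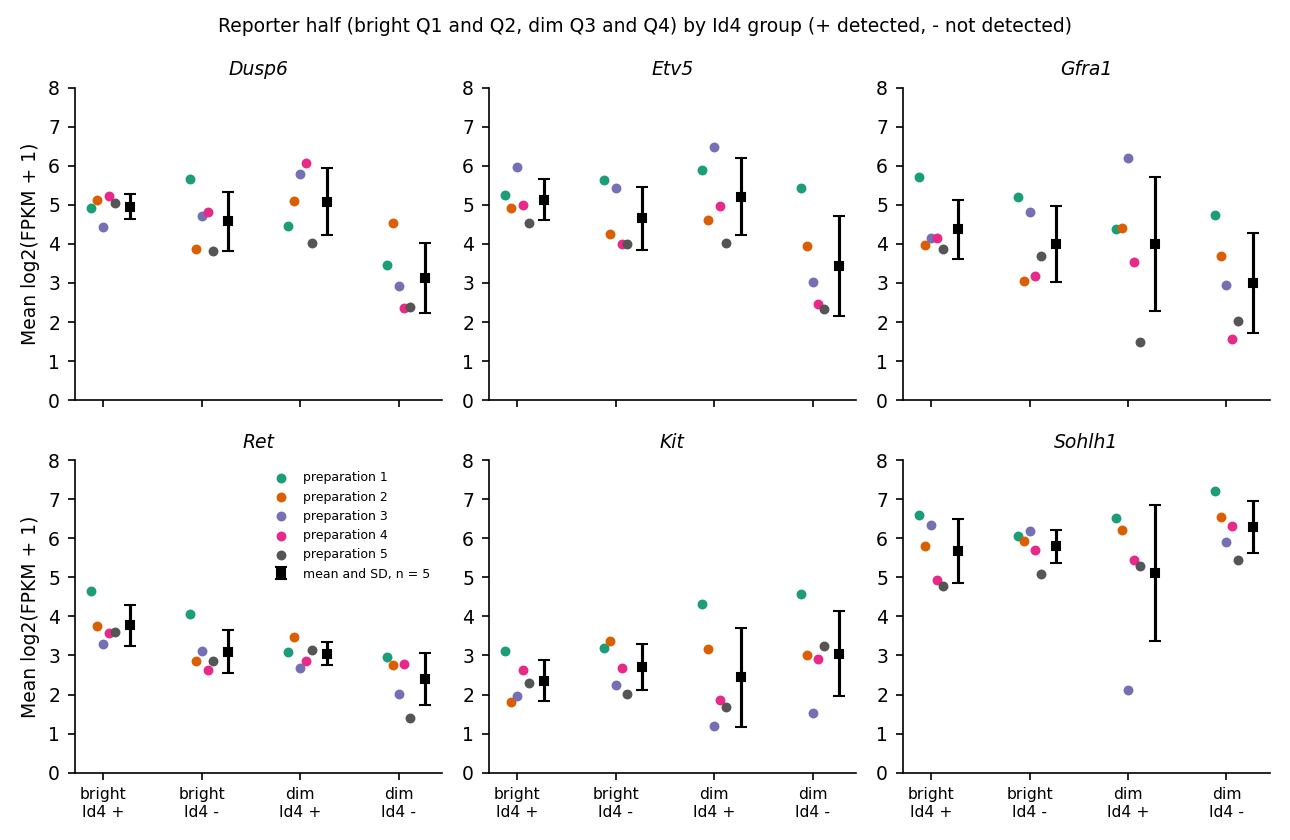
Mean log2(FPKM + 1) of 6 genes in cells grouped by reporter (bright, Q1 and Q2; dim, Q3 and Q4) and by Id4 (+ detected, - not detected), with each preparation as a coloured point and the mean and SD of 5 preparations in black. For Dusp6 and Etv5 the dim cells without Id4 have the lowest means of 5 preparations (3.13 and 3.44), against 4.58 to 5.20 in the other classes. This order does not hold in every preparation.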

How the data were processed

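Single-cell RNA-seq of 278 cells was deposited by the authors as 1 FPKM value per gene and cell; the unit was read from the quantifier's name and the values. The submitters' processing notes name TopHat, Cufflinks, FastQC, Picard and the mm10 (GRCm38) genome, with no version or setting; the annotation and the depth were not given in the sources used here. A passage in the labels calls the dim quartile Q2, and the design text, where it is Q4, was followed. The run number in each sample title was taken as the preparation named in the design text. Cells of the same run were taken to share a chip and a suspension. Coordinates came from GENCODE M21 (21695 of 23354 symbols matched).

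Depth was estimated from the spacing of low FPKM values in 1096 genes with 1 transcript of at least 1500 bases; 2 separate estimates lay within 1.25-fold in 269 of 278 cells. Of low values compared, 5995 lay at the step of 1 fragment, 1157 between steps and 1373 below it, so whole reads were not recovered and no count model was used.

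Means over cells of log2(FPKM + 1), per preparation and Id4 group, were modelled by limma (3.58.1; R 4.3.3; files read by data.table, 1.17.8) with a mean-variance trend and weights equal to the number of cells, and with preparation as a block (10 means, 4 residual degrees of freedom). A pseudocount of 1 understates changes of low genes. Genes at 1 FPKM in at least 10% of cells were tested, p-values were two-sided and Benjamini-Hochberg adjusted, and the threshold was 0.05. A second fit added quartile (39 means), and another tested the interaction with brightness (20 means). Exact permutation tests flipped the sign of preparation differences (SciPy 1.17.1). P-values of the permutation tests and of the fit over all quartiles measure spread between preparations, which may be technical. In the fits with quartile and with brightness, several means of a preparation entered as separate units (30 and 12 residual degrees of freedom). Their SEs and p-values thus also rest on spread among means that share a chip and a suspension, and may be too small. Both groups of a preparation share a suspension and a chip: deviations of same-preparation means correlated at 0.19 to 0.37 across genes, against a median of -0.12 and a highest of 0.22 between preparations. The highest correlation between cells was 0.692, so none was a duplicate.

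For the comparison over all quartiles (10451 genes), data were simulated by shuffling the values of each gene within preparations. A shift was then added in every Id4-detected cell, to 100 genes by 1 log2 unit and 100 by 2. Of these, 56% and 100% were called. Only genes detected in most cells were shifted, and the shuffling removed correlation between genes. It also removed any real variation of the group difference between preparations. The added shift was the same in every preparation and every Id4-detected cell, whereas measured differences varied between preparations, as for Dusp6. The shares called may therefore be too high even for genes detected in most cells. They do not hold for genes found in fewer cells. The members and lists were chosen with earlier results of these data known. Named genes were the 6 with the smallest p in each direction, which did not pass, plus fixed genes of spermatogonial state, the ID family and E proteins. Alternatives varied the Id4 cutoff, pseudocount, filter, scaling, covariates, weights, block, matching and preparations. EGFP transcripts were not analysed here.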

Additional observations from a re-analysis of the deposited data

Results flagged for a closer look

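Among 35 named genes with 5 preparation differences each, 5 had 1 preparation far from the other 4 (gap over range above 0.71, which chance gives in about 1 in 20 groups). The difference of Tcf12 was 1.11 in preparation 3 and -0.45 to -0.02 elsewhere. Snrpn was also highest in preparation 3, at 1.37 against 0.02 to 0.32. Ret stood at 1.60 in preparation 5 against 0.50 to 0.79. In preparation 1, Bcl6b stood at -1.06 against 0.82 to 1.5, and Lin28a at -1.10 against 0.07 to 0.41.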

How the results depend on the processing

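The difference in quartile number and the excess of Id4-detected cells in Q1 over Q4 kept their direction in every alternative run. The log2 ratio of depth turned to 0.0845 at an Id4 cutoff of 10 FPKM and ran from -0.0949 to 0.00794 with 1 preparation left out. Calls over all quartiles went from 0 to 1 (Tcl1) at cutoffs of 5 and 10 FPKM, and 1 call (Fbxl5) arose within quartiles without preparation 3 (range 0 to 1). With no replicate block there were 0 calls in each gene fit, with 329, 606 and 189 genes at an unadjusted p under 0.05 over all quartiles, within quartiles and for the interaction, and the quartile difference was -0.55. The block therefore changed no call. With log2 of the mean FPKM, the split at an unadjusted p under 0.05 moved to 328 higher and 331 lower, and with detected genes as a covariate to 388 and 315, against 516 and 226. Other list medians that moved by more than their spread were those of BMP receptors and SMADs (0.0304 at a cutoff of 5 FPKM), progenitor genes (-0.599 with log2 of the mean), the earlier-called genes (0.424 and 1.23 with pseudocounts of 10 and 0.1), immediate early and heat shock genes (0.493 with a pseudocount of 0.1) and G2/M genes (-0.158 at a cutoff of 10 FPKM).

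Of 660 alternative values of the named genes, 23 turned sign. Tcf12 stood at 0.0336 unweighted and 0.167 at a cutoff of 5 FPKM, and ran from -0.242 to 0.0356 with 1 preparation left out. Nanos2 stood at -0.0384 with a depth covariate and -0.125 in matched cells, and ran from -0.183 to 0.399 with 1 preparation left out. Zbtb16 stood at -0.0174 with a pseudocount of 10, -0.117 for the log of the mean, -0.0978 with the detected-genes covariate, -0.0737 and -0.163 at cutoffs of 5 and 10 FPKM and -0.187 in matched cells, and ran from -0.115 to 0.274 with 1 preparation left out. Neurog3 stood at 0.0249 and 0.0615 at cutoffs of 5 and 10 FPKM. Lin28a stood at -0.0334 with the covariate, -0.0124 unweighted, -0.0665 at a cutoff of 0 and -0.269 in matched cells, and ran from -0.00283 to 0.221 with 1 preparation left out. Dmrt1 ran from -0.309 to 0.053. The causes were not tested.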
